A study of Homo sapiens with 6 samples.

Results

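Untreated H460 cells were compared with untreated HCC95 cells on the 4 of the 6 Illumina HumanHT-12 v4 beadchip arrays of the series that carry no TGFβ label, 2 arrays a line. H460 is an established human line derived from a large cell lung cancer, and HCC95 is one derived from a squamous cell lung cancer. Of 47323 probes, 16965 had a detection p under 0.01 on at least 2 of the 4 arrays and were kept, and 10385 named genes had a kept probe. In each line 1 array is of cells that received the control plasmid pSin-E2F-GFP-puro, and the other is of cells that received pSIn-E2F-LZTFL1-ires-GFP-puro, which carries LZTFL1 and GFP on one transcript. All 4 cultures therefore carried GFP and a puromycin resistance marker, and none of them received TGFβ. LZTFL1 encodes a leucine zipper protein that controls traffic of cilium proteins through the BBSome. The design text asks for whole genome expression profiles of these cells, and the comparison of the lines asks how their untreated expression differed. Each line and vector had 1 array, and nothing in the labels says whether the cells were clones or pools. The p-values below combine 1 residual degree of freedom, left by the vector pairs, with a median prior of 13.2 fitted over all kept probes. They therefore rest mostly on how far vector pairs differed over probes in general, and little on how closely a gene's own pairs agreed. Repeat cultures and further tumours of either kind had no part in them.

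Squamous and basal epithelial cells are held together by desmosomes, anchored to the basement membrane by hemidesmosomes, and filled with keratin filaments whose members change as the cells mature toward a cornified surface. Simple epithelia are joined by E-cadherin and claudins, and a group of epithelial transcription and splicing factors keeps these genes active. Cells with a mesenchymal program carry vimentin filaments and secrete collagens and other matrix proteins. Lung cancer lines range between these states, and squamous lung cancers are known for keratin and desmosome genes and for the transcription factor SOX2.

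The arrays had median signals between 105.4 and 125.2 and between 14715 and 16423 detected probes, the fewest on H460 labelled GFP. Across the kept probes the normalized log2 values of the H460 pair correlated at 0.991, those of the HCC95 pair at 0.984, and pairs from different lines at 0.808 to 0.815. The single LZTFL1 probe read 5.75 and 5.07 on the HCC95 arrays labelled GFP and LZTFL1, and 6.36 and 6.39 on the H460 arrays. It was not detected on the HCC95 array labelled LZTFL1, so it did not show the introduced gene there, and its position relative to the plasmid's insert is not known here. The arrays are therefore named by their labels. The H460 values were the higher ones, by 0.97 (SE 0.26, adjusted p = 0.00559), and the adjusted p was 0.0589 without the HCC95 array labelled LZTFL1. All values below are log2 of normalized intensity, a difference is H460 minus HCC95, and an adjusted p is that of the limma fit with Benjamini-Hochberg adjustment over all 16965 kept probes. Per-array values are given in the order GFP, LZTFL1.

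The limma fit called 9008 of the 16965 probes (53.1%) at an adjusted p under 0.05, 4313 higher in H460 (25.4%) and 4695 lower (27.7%). A gene was read by its brightest kept probe, and 5848 of 10385 genes were called (56.3%), 2707 higher in H460 (26.1%) and 3141 lower (30.2%). Of the called genes 3007 (29.0% of those tested) also passed 2-fold, 1417 upward in H460 (13.6%) and 1590 downward (15.3%). Of these, 503 higher and 515 lower genes differed by at least 4-fold, 110 and 100 by at least 16-fold, and 32 and 21 by at least 64-fold. When the arrays were scaled to one median instead of quantile normalized, the median over all probes moved from -0.01 to -0.19, and the share of called probes that were higher in H460 went from 47.9% to 36.2% (from 48.7% to 37.3% past 2-fold). A call is thus frequent in this comparison, and the counts of gene groups below are read against these shares. With 26.1% of all genes higher and 30.2% lower, calls in both directions are no particular trait of a list. A gene that was detected on both arrays of 1 line and on neither of the other has only a bound, written "at least", which was computed against the lowest detected value of each undetected array. There were 914 such genes in HCC95 (8.80% of those tested) and 553 in H460 (5.32%). The counts past 2-fold and more above, and those by chromosome and window below, use the fitted differences. With the genes detected in 1 line at their bound, 1292 higher and 1363 lower genes passed 2-fold.

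**Figure D1:**
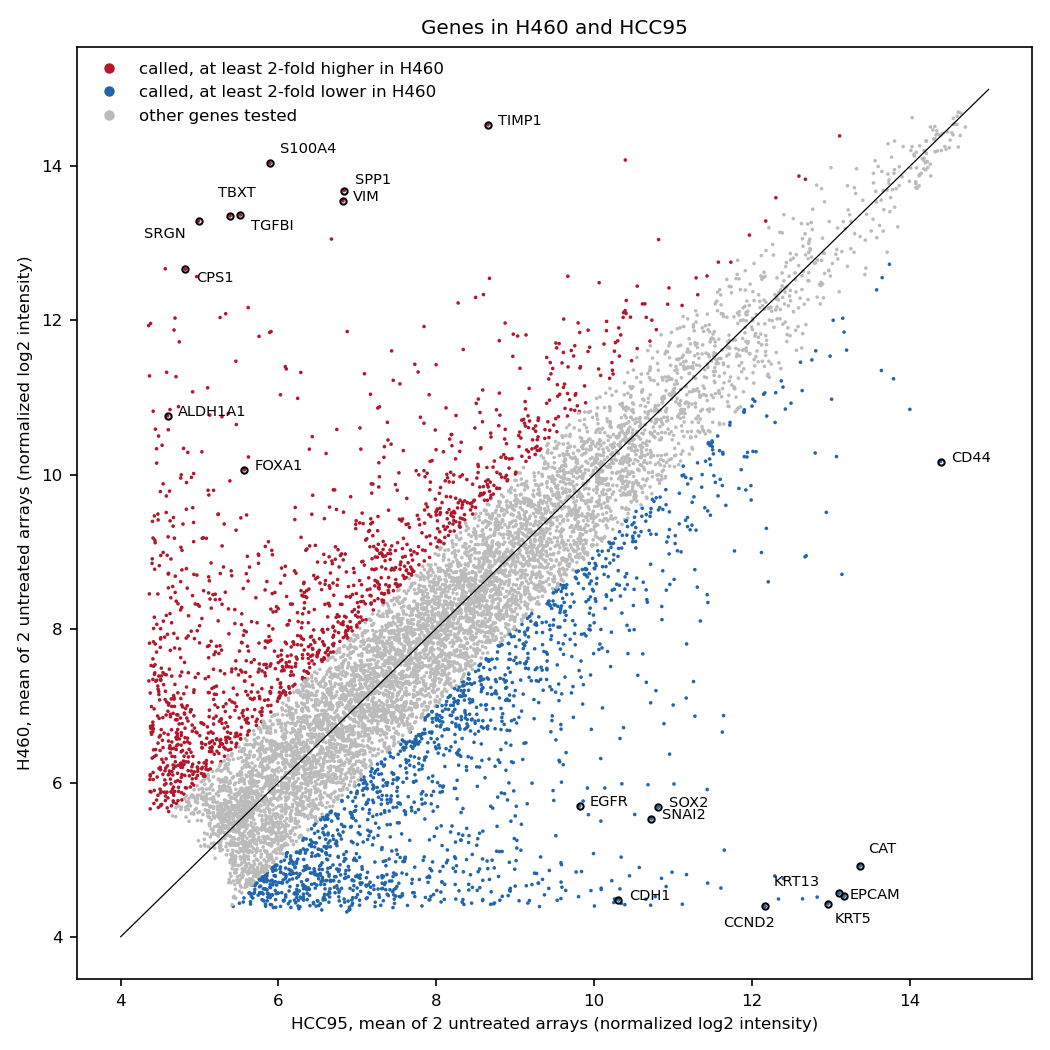
Mean normalized log2 intensity of 10377 named genes (the tested genes without those not reported here) on the 2 untreated HCC95 arrays (x axis) and the 2 untreated H460 arrays (y axis), where each point is a gene, colours mark genes called at an adjusted p under 0.05 with at least a 2-fold difference, and the line is equality. CAT, KRT13, EPCAM and KRT5 lie at the bottom right, and S100A4, SRGN, TGFBI and TBXT at the top left.

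The vector pairs shared no array. Between the arrays labelled GFP, 1476 genes passed 2-fold upward in H460 and 1720 downward, and between those labelled LZTFL1, 1473 and 1614. Past 2-fold in both pairs were 1179 higher genes, 79.9% of the GFP list and 80% of the LZTFL1 list, and 1306 lower genes, 75.9% and 80.9%. There were 0 genes past 2-fold in opposite directions. Of the 5848 called genes, 2 had opposite signs in the pairs, ANXA10 and TMEM191B. A call is made from the mean of these same pair differences, so that few opposite signs follow from the calling. Among the genes with the largest gaps between the pairs, the metalloproteinase gene MMP10 differed by -5.54 with GFP and by -1.89 with LZTFL1, and the cytokine gene IL1A by -5.09 and -2.22.

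Basal and squamous epithelial genes were higher in HCC95. Of 21 basal and squamous genes measured, 17 were lower in H460 (16 past 2-fold with undetected genes at their bound), 1 was higher and 3 were not called, with a median difference of -4.10, or -3.25 at the bounds, against -0.03 for all genes. KRT5, a keratin of basal cells, read 12.94 and 12.98 in HCC95 and 4.40 and 4.46 in H460. It was at least 178-fold lower in H460 (log2 -7.48, adjusted p = 6.20e-14). Its usual filament partner KRT14 read 11.08 and 9.46 against 4.44 and 4.53 and was at least 27.5-fold lower. The HCC95 arrays lay far above both H460 arrays for these keratins, although KRT14 itself was higher with GFP than with LZTFL1. KRT16 and KRT15, keratins of activated and of basal epithelium, were at least 36.0-fold and 28.6-fold lower. CALML3, a calmodulin-like protein of squamous epithelia, read 12.09 and 12.58 against 4.37 and 4.61, at least 115-fold lower. SOX2, which squamous lung cancers often carry at high level, read 10.69 and 10.93 in HCC95 and 5.47 and 5.90 in H460. It was a fitted 35.0-fold lower (difference -5.13, SE 0.18) and was detected on 1 H460 array, so that the size of the fold is uncertain. The basal receptor NGFR was at least 1.68-fold lower. FABP5, a fatty acid binding protein of keratinocytes, was the exception, 2.83-fold higher in H460.

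Desmosome and cornified envelope genes went the same way. PKP1, a plakophilin of squamous desmosomes, read 11.81 and 11.41 in HCC95 and 4.68 and 4.58 in H460, at least 69.5-fold lower. The desmosomal cadherin gene DSG3 was at least 13.2-fold lower and DSC3, detected on all 4 arrays, 17.2-fold. Of the cadherins that occur in a wider range of tissues, DSG2 was lower, by -0.82, and DSC2, at -0.21, was not called (adjusted p = 0.397). Of 18 cornified envelope genes measured, 16 were lower, 0 were higher and 2 were not called, with a median of -2.34 (-1.77 at the bounds). KRT13, a keratin of maturing mucosal squamous cells, read 13.25 and 13.09 against 4.48 and 4.58. It was at least 205-fold lower in H460 (log2 -7.68, adjusted p = 6.20e-14). S100A8 and S100A9, which pair as calprotectin, read 11.03 and 10.79, and 11.12 and 11.22, in HCC95, and they were not detected in H460. They were at least 43.0-fold and 51.4-fold lower. The small proline-rich genes SPRR3 and SPRR1A, cross-linked into the envelope, were also lower, SPRR3 by at least 12.8-fold and SPRR1A by 12.6-fold. SPRR1A was detected on all 4 arrays, at 6.97 and 6.46 in H460. PI3, the skin protease inhibitor elafin, was at least 71.6-fold lower. KRT10, a keratin of the upper epidermis, was not called (difference 0.03, adjusted p = 0.884). These genes have near-identical relatives, and a probe may read more than 1 of them.

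A probe annotated to the locus of MIR205, a microRNA known from basal and squamous epithelium, followed these genes. It read 10.27 and 9.01 in HCC95 and 4.41 and 4.79 in H460, at least 17.8-fold lower (adjusted p = 3.62e-09). Both HCC95 arrays lay above both H460 arrays, the GFP one the higher. The array reads RNA from the locus and not the mature microRNA. The mature sequences, from RefSeq with the build GRCh38.p14, are shown because the 5p strand carries the seed by which this microRNA is known to bind ZEB messages. Both lie on the plus strand, at chr1:209432166-209432187 and chr1:209432203-209432223, and capitals mark the seed, bases 2 to 8.
hsa-miR-205-5p: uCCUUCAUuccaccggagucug
hsa-miR-205-3p: gAUUUCAGuggagugaaguuc

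Genes that fix epithelial cells to the basement membrane were lower in H460 as well. Of 9 measured hemidesmosome and laminin genes, 6 were lower, 1 was higher and 2 were not called, with a median of -1.60. LAMB3, a chain of the laminin of epithelial basement membranes, read 10.60 and 10.11 in HCC95 and 6.16 and 5.81 in H460, 20.6-fold lower (difference -4.37, SE 0.18, adjusted p = 8.76e-11). The integrin genes ITGA3 and ITGB4 were 13.7-fold and 10.3-fold lower, and COL7A1, the collagen of anchoring fibrils, 3.04-fold. ITGA6, the partner of ITGB4, differed by -0.89 and was not called without the HCC95 array labelled GFP (adjusted p = 0.152) or the H460 array labelled LZTFL1 (adjusted p = 0.142). CD151, a tetraspanin that binds these integrins, was higher, by 0.81. LAD1, an anchoring filament protein, was detected in HCC95 only, at 12.80 and 12.85, and was at least 162-fold lower in H460.

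Of 32 epithelial junction and identity genes measured, 25 were lower in H460, 5 were higher and 2 were not called, with a median of -2.58 (-1.73 at the bounds). Detected in HCC95 only were 21 of the 32, against 8.80% of all genes. EPCAM, an adhesion molecule of simple epithelia, read 12.98 and 13.23 in HCC95 and 4.63 and 4.50 in H460, at least 196-fold lower. CDH1, which encodes E-cadherin, read 10.38 and 10.24 against 4.48 and 4.48. It was at least 28.3-fold lower (log2 -4.82, adjusted p = 9.33e-12). The lines were apart by far more than the vector arrays within either. The claudin gene CLDN7 was at least 20.4-fold lower. SPINT2 and SPINT1, inhibitors of membrane serine proteases, were at least 143-fold and 7.17-fold lower, and ST14, the protease matriptase that they restrain, at least 5.95-fold. Some factors known from the epithelial program were also not detected in H460, and their part in these differences was not tested. These were the transcription factors OVOL2, GRHL2 and ELF3, at least 6.77-fold, 3.08-fold and 3.00-fold lower, and the splicing factor ESRP1, at least 2.93-fold. The relatives ESRP2 and GRHL1 were detected on 0 and 1 of the 4 arrays and were not kept.

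Not every epithelial gene followed these. KRT19 was 5.75-fold lower but read 10.52 and 10.04 in H460, well detected, and the junction protein gene JUP was 2.97-fold lower at 10.91 and 10.95. The simple epithelial keratins KRT8 and KRT18 were higher in H460. KRT8 read 9.29 and 9.90 in HCC95 and 10.61 and 10.40 in H460, a difference of 0.91 (adjusted p = 0.000962), and KRT18 differed by 0.56 (adjusted p = 0.0439). KRT7, a keratin of glandular epithelium, was detected in H460 only, at least 2.51-fold higher. MAP7, a microtubule protein of epithelial cells, was 3.60-fold higher, and the tight junction scaffold TJP1 was not called (difference -0.35, adjusted p = 0.0959). On the H460 arrays simple epithelial keratins were thus detected and the E-cadherin probe was not.

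**Figure D2:**
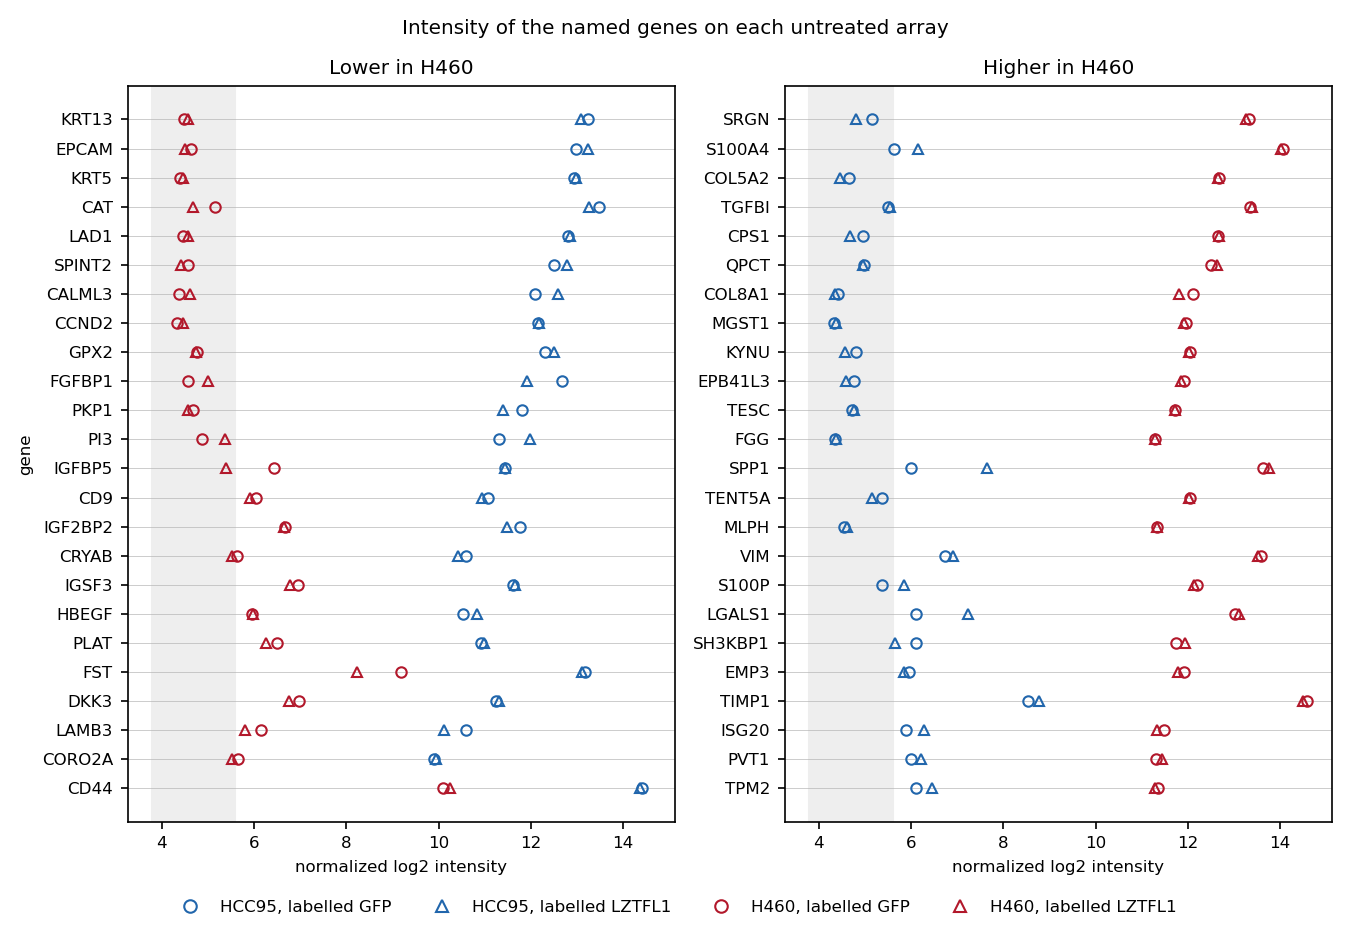
Normalized log2 intensity on each of the 4 untreated arrays for the 24 genes lower and the 24 higher in H460 that the naming rule took, with blue for HCC95, red for H460, circles for arrays labelled GFP and triangles for those labelled LZTFL1. The grey band marks values at and below about the lowest detected level. The 48 genes were taken for the size of their difference, so the arrays of the lines lie apart by that choice.

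Promoters of epithelial genes often hold the E-box letters CAGGTG, searched on both strands, to which the SNAI and ZEB repressors are known to bind. In the RefSeq promoters of 300 bases, 250 before and 50 after the gene's start, 20.6% of all 27195 promoters held the motif on either strand, and 18.3% of the 8442 promoters that matched a tested gene. It was in 137 of 459 promoters (29.8%) of HCC95-only genes called past 2-fold, and in 57 of 325 (17.5%) of H460-only genes called past 2-fold. At least 2 copies were in 7.19% and 1.54%, against 2.45% of the promoters that matched a tested gene. Of 18 measured epithelial junction and identity genes with a promoter sequence, 10 held it (55.6%). Among those without it, CLDN7 (-4.99), SPINT1 (-3.88), LSR (-2.81), EHF (-2.65), CGN (-2.39) and JUP (-1.57) had negative differences. CLDN1 (1.34) and KRT8 (0.91), also without it, had positive ones. These shares describe letters and not binding, and no test was made. At least 2 copies were in 6 of these 18, of which CRB3, RAB25, DSP, GRHL3 and DSG2 were lower in H460 and MAP7 was higher, and the promoters of the 3 with the largest differences among the lower ones are shown. CRB3, a polarity protein of the apical membrane, read 7.60 and 7.85 in HCC95 and was not detected in H460, at least 4.72-fold lower. RAB25, a small GTPase of epithelial recycling, read 7.97 and 9.22 and was at least 8.60-fold lower. DSP, the desmosomal plaque protein desmoplakin, read 9.51 and 8.47 and was at least 11.3-fold lower. CRB3 lies at chr19:6464021-6464320, RAB25 at chr1:156060910-156061209 and DSP at chr6:7541421-7541720, all on the plus strand of GRCh38.p14, and capitals mark the motif, with 5, 2 and 2 matches.
CRB3: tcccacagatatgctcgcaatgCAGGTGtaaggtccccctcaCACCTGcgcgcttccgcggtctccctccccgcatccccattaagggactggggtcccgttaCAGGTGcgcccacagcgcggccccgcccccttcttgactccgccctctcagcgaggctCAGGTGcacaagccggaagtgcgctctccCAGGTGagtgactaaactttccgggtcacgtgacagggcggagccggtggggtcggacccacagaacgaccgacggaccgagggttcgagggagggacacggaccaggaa
RAB25: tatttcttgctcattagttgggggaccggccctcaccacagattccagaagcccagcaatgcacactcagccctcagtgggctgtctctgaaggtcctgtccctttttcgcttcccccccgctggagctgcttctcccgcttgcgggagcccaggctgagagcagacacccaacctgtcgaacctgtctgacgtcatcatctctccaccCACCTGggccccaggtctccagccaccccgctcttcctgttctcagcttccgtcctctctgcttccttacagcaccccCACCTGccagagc
DSP: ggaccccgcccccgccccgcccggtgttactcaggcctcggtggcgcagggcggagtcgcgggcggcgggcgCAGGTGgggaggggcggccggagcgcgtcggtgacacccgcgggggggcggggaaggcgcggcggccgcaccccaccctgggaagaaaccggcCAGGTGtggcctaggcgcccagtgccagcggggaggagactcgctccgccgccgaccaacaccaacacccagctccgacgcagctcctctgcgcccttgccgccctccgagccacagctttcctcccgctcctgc

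Mesenchymal genes did not move one way. Of 22 measured, 12 were higher in H460, 9 were lower and 1 was not called, with a median of 1.05 (0.74 at the bounds). VIM, the mesenchymal filament vimentin, read 6.73 and 6.91 in HCC95 and 13.59 and 13.52 in H460, 107-fold higher (difference 6.74, SE 0.16, adjusted p = 1.52e-13). S100A4, a calcium binding protein of motile fibroblast-like cells, read 5.63 and 6.16 against 14.07 and 14.01. At a fitted 284-fold it had the largest difference among higher genes detected on all 4 arrays. The first of its HCC95 values lay near the lowest detected value of that array (5.38), so that the size of the fold is uncertain. TGFBI, a matrix protein, read 5.49 and 5.54 against 13.36 and 13.38, a fitted 231-fold higher. Its HCC95 values lay near the lowest detected values of those arrays (5.38 and 5.33), so that the size of the fold is uncertain. COL5A2, a fibrillar collagen, was detected in H460 only, at 12.68 and 12.66, and was at least 159-fold higher. Fibronectin (FN1), the receptor genes PDGFRB and AXL, and the cadherin CDH11 were higher too, FN1 by at least 4.81-fold, PDGFRB by at least 4.02-fold, AXL by at least 2.31-fold and CDH11 by 4.75-fold. ACTA2, smooth muscle actin, was 14.1-fold higher.

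Other genes of the same list were HCC95 genes. SNAI2, a repressor of E-cadherin that basal cells also carry, read 10.94 and 10.51 in HCC95 and 5.12 and 5.94 in H460, a fitted 36.6-fold lower (difference -5.20, SE 0.25), and it was detected on 1 of the H460 arrays, so that the size of the fold is uncertain. CDH2, which encodes N-cadherin, read 9.39 and 7.78 in HCC95 and was not detected in H460, at least 8.57-fold lower. THY1, a surface glycoprotein, was at least 14.1-fold lower and the matrix protein gene TNC 4.59-fold lower. All 4 genes were higher on both HCC95 arrays than on either H460 array, although CDH2 and TNC differed by more than 1 between the HCC95 arrays. Unlike COL5A2, the fibrillar collagen genes COL1A1 and COL1A2 were detected on both HCC95 arrays and on neither H460 array. ZEB1 and SNAI1, repressors of the epithelial program, were not detected on any of the 4 arrays, and ZEB2 was detected in H460 only, at least 1.59-fold higher. Vimentin was thus high on H460 arrays on which N-cadherin was not detected, and HCC95 arrays showed N-cadherin beside E-cadherin.

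**Figure D3:**
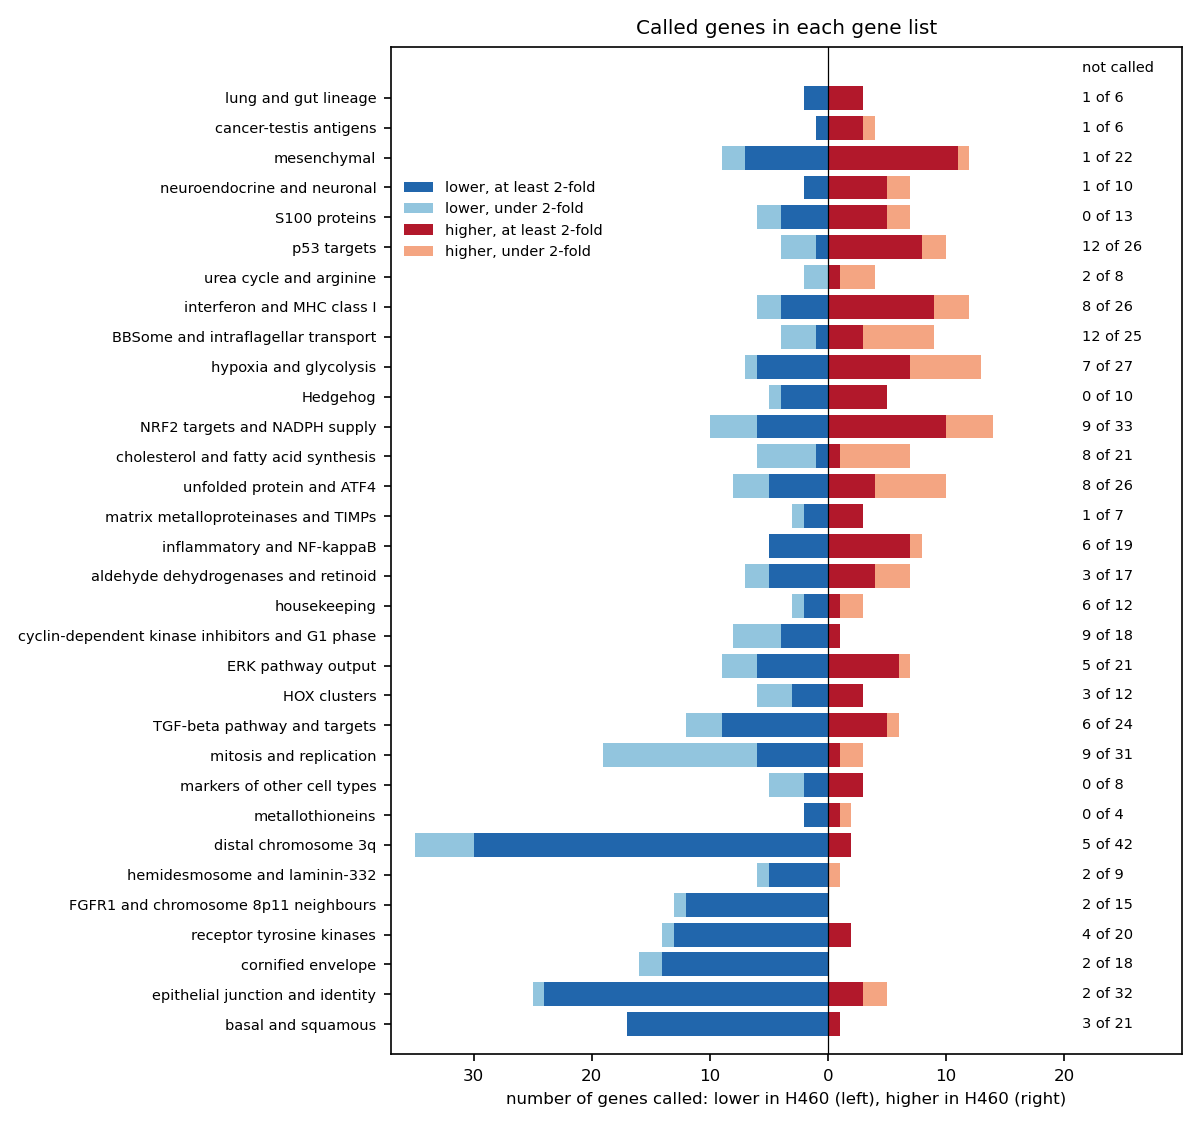
Number of called genes in each of 32 gene lists that were lower (left, blue) or higher (right, red) in H460, dark where the difference was at least 2-fold, with the lists ordered by their median difference and the number not called of those measured at the right. Basal, epithelial and cornified envelope lists lean left, and the mesenchymal list has 12 to the right and 9 to the left.

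Genes of gland and foregut lineages were split. FOXA1, a pioneer transcription factor of endoderm, read 5.51 and 5.63 in HCC95 and 10.03 and 10.09 in H460, 22.5-fold higher (difference 4.49). AGR2, a disulfide isomerase of mucus cells, was 31.7-fold higher and the mucin gene MUC1 8.97-fold higher. FOXA2, a relative of FOXA1, went the other way, at 7.16 and 8.28 in HCC95 and not detected in H460, at least 4.70-fold lower. CEBPA was 4.10-fold lower. NKX2-1, the lung lineage factor, was not detected on any array. TBXT, which encodes brachyury, a factor of the notochord, read 5.23 and 5.55 in HCC95 and 13.37 and 13.34 in H460. It was a fitted 251-fold higher and was detected on 1 HCC95 array, so that the size of the fold is uncertain. TBXT was picked out after its values were seen. Of 21 neuroendocrine and neuronal genes with a probe, 10 were measured, of which 7 were higher and 2 lower. The neuroendocrine genes SYP and INSM1 were not detected on any of the 4 arrays. NCAM1 and CHGA, adhesion and granule proteins of neuroendocrine cells, were at least 4.34-fold and 3.01-fold higher, and the granule gene CHGB was at least 8.35-fold lower.

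The other genes with the largest differences were of varied kinds. In H460, SRGN, the granule proteoglycan serglycin, read 13.31 and 13.27 and was at least 245-fold higher. CPS1, the first enzyme of the urea cycle, read 4.95 and 4.69 in HCC95 and 12.65 and 12.67 in H460, at least 158-fold higher. The enzymes QPCT and KYNU, which act on glutamine at peptide ends and on kynurenine, were at least 148-fold and 102-fold higher. The remaining H460 genes without detection in HCC95 were TENT5A, COL8A1, MGST1, EPB41L3, TESC, MLPH and FGG, with bounds from 60.7-fold for FGG, a chain of fibrinogen, to 103-fold for TENT5A. Among genes detected on all arrays, SPP1, which encodes osteopontin, read 6.01 and 7.66 against 13.62 and 13.75, 116-fold higher. S100P, the lectin LGALS1, the adaptor SH3KBP1, the membrane protein EMP3 and the protease inhibitor TIMP1 were 93.7-fold, 83.6-fold, 62.1-fold, 61.8-fold and 59.2-fold higher. S100P read 5.38 and 5.85 in HCC95, the first of these at the lowest detected level, so that the size of its fold is uncertain. The exonuclease ISG20, the long noncoding RNA PVT1 and the tropomyosin TPM2 followed at 39.8-fold, 38.6-fold and 32.9-fold. PVT1 neighbours MYC, which read 12.15 and 11.87 in HCC95 and 11.84 and 11.92 in H460 and was not called (difference -0.13, adjusted p = 0.472).

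In HCC95, CAT, which encodes catalase, read 13.48 and 13.26 and was not detected in H460, at least 236-fold lower (log2 -7.88). GPX2, a glutathione peroxidase of epithelia, and CCND2, a G1 cyclin, were at least 121-fold and 103-fold lower. FGFBP1, a carrier of fibroblast growth factors, was at least 112-fold lower. Of genes detected on all arrays, IGFBP5, which binds insulin-like growth factors, read 11.43 and 11.43 against 6.43 and 5.39, 45.9-fold lower. The tetraspanin CD9, the RNA binding protein IGF2BP2, the small heat shock protein CRYAB and the membrane protein IGSF3 were 32.6-fold, 31.3-fold, 30.4-fold and 27.3-fold lower. PLAT, the tissue plasminogen activator, follistatin (FST), DKK3 and CORO2A were between 20.3-fold and 24.0-fold lower. CD44, the hyaluronan receptor, read 14.41 and 14.37 in HCC95 and 10.10 and 10.24 in H460, 18.7-fold lower. On the HCC95 arrays labelled TGFβ, which took no part in the fit, both values lay on the HCC95 side of the midpoint between the lines for 47 of the 48 genes that the naming rule took, all but CRYAB, and for 2820 of the 3001 genes called past 2-fold that remain after leaving out those not reported here.

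Receptor tyrosine kinases, which carry growth factor signals into the cell, were mostly lower in H460. Of 20 measured, 14 were lower, 2 were higher and 4 were not called, with a median of -1.68 (-1.21 at the bounds). EGFR, the epidermal growth factor receptor, read 10.15 and 9.48 in HCC95 and 5.80 and 5.59 in H460, 17.4-fold lower (difference -4.12, SE 0.20, adjusted p = 4.13e-10). Its relative ERBB3 was at least 6.06-fold lower and ERBB2, detected on all 4 arrays, 3.86-fold. The EGFR ligand genes HBEGF and TGFA were lower as well, HBEGF at 10.53 and 10.84 against 5.97 and 5.98, 26.2-fold, and TGFA by at least 5.52-fold. The EGFR ligand gene EGF went the other way, detected in H460 only and at least 1.77-fold higher. FGFR3, a fibroblast growth factor receptor, read 10.69 and 10.87 and was not detected in H460, at least 39.1-fold lower. The neurotrophin receptor NTRK2 was at least 37.5-fold lower. FGFR1 was not detected on any of the 4 arrays, and MET, the receptor of hepatocyte growth factor, was not called (difference -0.35, adjusted p = 0.135). The higher ones were AXL and PDGFRB.

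Genes that report ERK activity were divided. Of 21 measured, 7 were higher, 9 were lower and 5 were not called, where 26.1% of all genes were higher and 30.2% lower. LIF, a secreted cytokine, read 8.77 and 8.79 in H460 and was not detected in HCC95, at least 10.7-fold higher, and the ERK phosphatase DUSP4 was at least 4.45-fold higher. The ERK phosphatase DUSP6 was lower, by -0.65 (adjusted p = 0.00515), PHLDA1 was 8.78-fold lower and the feedback inhibitor SPRY2 was not called (difference 0.04, adjusted p = 0.890).

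Of 10 measured Hedgehog genes, 5 were higher and 5 were lower, with a median of 0.21 that became 0.00 at the bounds and -0.04 with median scaling. GLI2, a transcription factor of the pathway, read 9.14 and 8.75 in HCC95 and 5.33 and 5.66 in H460, a fitted 10.9-fold lower (difference -3.45, SE 0.22), with detection on 1 of the H460 arrays. GLI1 and PTCH1, which the pathway is known to induce, were detected in HCC95 only, lower by at least 1.95-fold for GLI1 and with a log2 bound of -0.58 for PTCH1. The ligand exporter DISP1 and the ligand co-receptor GAS1 were 10.1-fold and 5.10-fold higher in H460, and the signal transducer SMO differed by -0.63 (adjusted p = 0.0212).

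BBSome and intraflagellar transport genes serve the cilium that Hedgehog signalling passes through. Of 25 measured, 9 were higher, 4 lower and 12 not called, with a median of 0.36 against -0.03 for all genes, and of 0.11 with median scaling. IFT43 differed by 1.38 on the log2 scale, IFT74 was 2.41-fold higher, the BBSome subunit gene TTC8 2.07-fold higher, and IFT46 at least 2.17-fold lower. The BBSome subunit genes BBS1, BBS2, BBS4 and BBS9 were not called, with differences between -0.20 and 0.36.

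Of 24 measured genes of the TGF-beta pathway, 12 were lower, 6 were higher and 6 were not called, with a median of -0.50. The ligand gene BMP7 and the matrix protein gene THBS1 were at least 10.9-fold and 9.44-fold lower, and the inhibitor SMAD7 at least 3.54-fold. SMAD3, which carries the signal to the nucleus, read 8.98 and 8.99 against 6.95 and 7.30, 3.62-fold lower, while the receptor TGFBR2 was not called (difference -0.02, adjusted p = 0.943). Among the higher genes were the ligand TGFB3, at least 4.08-fold, and ID2, ID3 and CCN2, which the pathway is known to regulate, at 8.20-fold, 3.51-fold and 2.88-fold.

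Oxidant defence genes went both ways. Of 33 measured NRF2 targets and NADPH suppliers, 14 were higher, 10 lower and 9 not called, with a median of 0.20. Over all genes 26.1% were higher and 30.2% lower. NFE2L2, which encodes NRF2, read 12.22 and 11.75 in HCC95 and 9.93 and 9.78 in H460, 4.38-fold lower. Its targets GCLC and GCLM, the subunits of the enzyme that starts glutathione synthesis, were 4.23-fold and 2.27-fold lower. ABCC2, an exporter of glutathione conjugates, read 9.91 and 10.00 in H460 and was at least 24.2-fold higher, and the heme oxygenase HMOX1 was 4.47-fold higher. NQO1, a quinone reductase, and AKR1B10, an aldehyde reductase, read above 11.9 on every array and were 1.64-fold and 2.23-fold higher. TXNRD1 and SQSTM1, also targets, were not called (adjusted p = 0.263 and 0.454).

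Of 17 aldehyde dehydrogenase and retinoid genes measured, 7 were higher and 7 lower. ALDH1A1, a retinaldehyde dehydrogenase, read 4.59 and 4.60 in HCC95 and 10.54 and 10.99 in H460, at least 42.3-fold higher. Its relative ALDH1A3 was detected in HCC95 only, at 8.61 and 8.86, and was at least 9.50-fold lower. ALDH7A1 and ALDH3B1 were at least 30.5-fold and 13.5-fold higher. CPS1 stood apart from the other 7 measured urea cycle and arginine genes, whose differences lay between -0.94 and 0.96. ASS1, the next but one enzyme of the cycle, read 11.83 and 11.18 against 11.98 and 11.67 and was not called (adjusted p = 0.0747). Of 21 cholesterol and fatty acid synthesis genes, 7 were higher and 6 lower, 1 each way by at least 2-fold. Of 27 hypoxia and glycolysis genes, 13 were higher and 7 lower, with the lactate dehydrogenase LDHA 2.42-fold higher and BNIP3, a mitophagy gene, 3.74-fold higher, but the peptide hormone gene ADM 10.3-fold and NDRG1 5.31-fold lower. Of 26 unfolded protein and ATF4 genes, 10 were higher and 8 lower, among them CTH, an enzyme of cysteine synthesis, 4.35-fold higher, and ATF3 6.60-fold lower.

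Of 26 measured targets of p53, 10 were higher in H460, 4 were lower and 12 were not called, with a median of 0.44, and of 0.20 with median scaling. TP53I3 and CYFIP2 were detected in H460 only, at least 8.53-fold and 13.1-fold higher, and RPS27L read 10.34 and 10.47 against 12.10 and 12.08, 3.22-fold higher. CDKN1A, the cyclin-dependent kinase inhibitor of this pathway, was lower, by -0.55 (adjusted p = 0.00870), and MDM2 was not called (difference 0.26). CDKN2A was not detected on any of the 4 arrays. Its chromosomal neighbour MTAP read 8.19 and 8.26 in HCC95 and 9.26 and 9.28 in H460, 2.06-fold higher. CCND1 and RB1 were 3.57-fold and 2.39-fold lower. Of 31 mitosis and replication genes, 19 were lower, 3 were higher and 9 were not called, with a median of -0.56. FOXM1, a transcription factor of G2 and mitosis, was 3.56-fold lower. MKI67 was lower by -0.88 (adjusted p = 0.00410) and was not called without the H460 array labelled LZTFL1 (adjusted p = 0.0964). PLK1 and CDK1 were not called (differences -0.01 and -0.03).

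The neutrophil chemokines CXCL5, CXCL1 and CXCL8 were higher in H460, and the cytokine IL1A was lower. Of 19 measured inflammatory and NF-kappaB genes, 8 were higher, 5 were lower and 6 were not called. CXCL5 was detected in H460 only, at 9.66 and 9.78, and was at least 20.6-fold higher. CXCL1 read 5.64 and 5.55 against 9.54 and 9.41, 14.7-fold higher, and CXCL8 was 8.54-fold higher. IL1A read 10.14 and 7.39 in HCC95 and was not detected in H460, at least 9.70-fold lower, and LCN2, an iron-carrier binding protein, was at least 8.34-fold lower. IL6 was not called (adjusted p = 0.189). Of 26 interferon and MHC class I genes, 12 were higher and 6 lower. OAS1, a sensor of double-stranded RNA, read 5.33 and 5.29 in HCC95, where it was not detected, and 9.52 and 9.19 in H460. IFI44L was at least 6.49-fold higher, IFITM3 was 5.37-fold higher and IFITM1 13.5-fold lower. The relatives IFITM1, IFITM2 and IFITM3 are alike in sequence, and a probe may read more than 1 of them.

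Genes normally confined to the germ line were measurable only in part. Of 45 cancer-testis genes with a probe, 6 were kept, of which 4 were higher and 1 lower. MAGEA1 read 4.39 and 4.51 in HCC95 and 10.36 and 10.31 in H460, at least 31.5-fold higher. MAGEB2 was at least 12.6-fold and PRAME 5.40-fold higher, while MAGEA9B, which has a near-identical copy, was at least 17.1-fold lower. Of 12 HOX genes measured, 3 were higher and 6 lower. HOXB5, a patterning gene of the body axis, was 4.82-fold higher. The metal binding protein gene MT1X was 16.8-fold lower, and MT2A was 2.03-fold higher.

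S100 genes, which encode small calcium binding proteins and mostly lie in a cluster on chromosome 1, were split within that cluster. Of 13 measured S100 genes, 7 were higher and 6 lower. In the window of 25 neighbouring genes from POGZ to S100A14 the median was -1.93, with 13 genes at least 2-fold lower and 5 at least 2-fold higher. Of these, SPRR2E among the lower genes and THEM4 among the higher ones had bounds under 2-fold (1.99-fold and 1.44-fold). S100A9 and S100A8 lay beside S100A6, S100A4 and S100A3, which were 4.70-fold, 284-fold and 3.48-fold higher, with S100A3 detected on 1 HCC95 array.

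Shares of called genes differed between chromosomes, with no test made. Of 330 genes on chromosome X, 147 passed 2-fold upward in H460 (44.5%) and 14 downward (4.24%), with a median of 0.79. Over all genes the shares were 13.6% and 15.3%. The median on X was 0.74 between the arrays labelled GFP and 0.79 between those labelled LZTFL1. Chromosome 6 had the largest share of lower genes (25.1%), followed by chromosome 3 (21.9%), chromosome 8 (21.3%), and chromosomes 18, 15 and 11 (20.8%, 20.7% and 20.1%). Among autosomes, chromosome 4 had the largest share of higher genes (23.2%). The order of genes was taken from a GRCh38.p14 gene table, which may not be the build of the array's design, and neighbours share a position and are not independent.

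Over 9820 windows of 25 neighbouring genes the medians had a 5th percentile of -0.83 and a 95th percentile of 0.65. The lowest was on chromosome 11, from CAPRIN1 to TSPAN18, at -2.37, with 14 genes at least 2-fold lower and 2 higher. It held CAT, CD44, the epithelial factor gene EHF, the TRIM family gene TRIM44 and the ubiquitin ligase gene TRAF6. It also held the acetyltransferase NAT10, which read 12.69 and 12.69 in HCC95 and 8.90 and 8.99 in H460. TRIM44 was lower by -3.74 and TRAF6 was at least 5.61-fold lower. Within the window the run from NAT10 to IFTAP was lower in 13 of 14 genes, with PRR5L higher by 0.97, while the next 8 genes, from API5 to EXT2, lay between -0.21 and 1.17 with ACCS at its bound. TSPAN18, at the end of the window, was at least 9.98-fold lower.

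The window from PLPBP to SLC20A2 on chromosome 8 had a median of -1.72, with 19 of 25 genes at least 2-fold lower and 0 higher. PLAT, which activates plasminogen, differed by -4.59, the phosphate carrier SLC20A2 by -3.38 and TACC1, a centrosome protein, by -3.10. Of 15 measured genes listed as neighbours of FGFR1 at 8p11, 13 were lower and 0 were higher. On chromosome 3, 35 of 42 measured genes listed on the distal long arm were lower, 2 were higher and 5 were not called, with a median of -1.40. Beside SOX2 and IGF2BP2 these included the helicase EIF4A2 (5.86-fold), the receptor of transferrin TFRC (2.27-fold) and the RNA binding protein FXR1 (3.48-fold). The 3 lowest windows there, which start at EIF4G1, OPA1 and ACTL6A, had medians of -1.62, -1.56 and -1.44. These lists were chosen with earlier results of these arrays known, so that their direction is no independent evidence. On chromosome X the highest window ran from SCML1 to RPGR, with a median of 2.18 and 24 of 25 genes at least 2-fold higher. It held SH3KBP1, SRPX, the peroxiredoxin PRDX4 and MAGEB2.

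**Figure D4:**
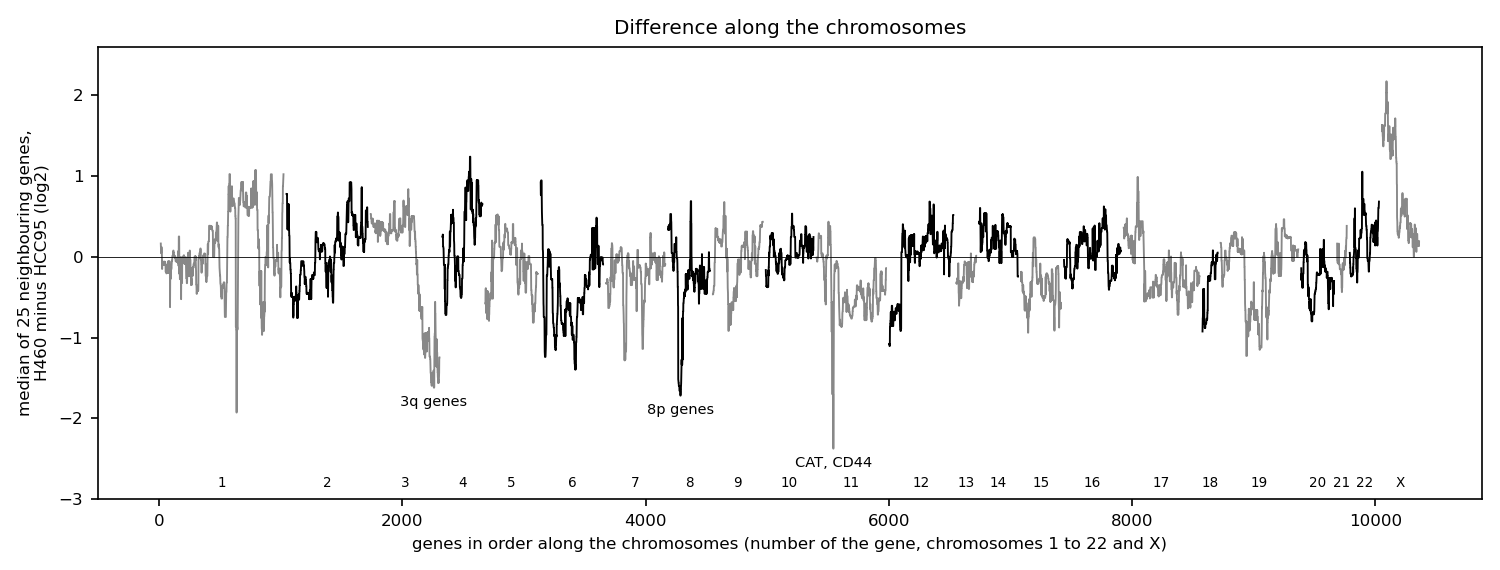
Median difference (H460 minus HCC95, log2) in sliding windows of 25 neighbouring genes, in chromosome order from 1 to 22 and X, with black and grey for alternate chromosomes. The lowest windows are on chromosome 11 (-2.37), 1 (-1.93), 8 (-1.72) and 3 (-1.62), and the highest are on X (up to 2.18).

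**Figure D5:**
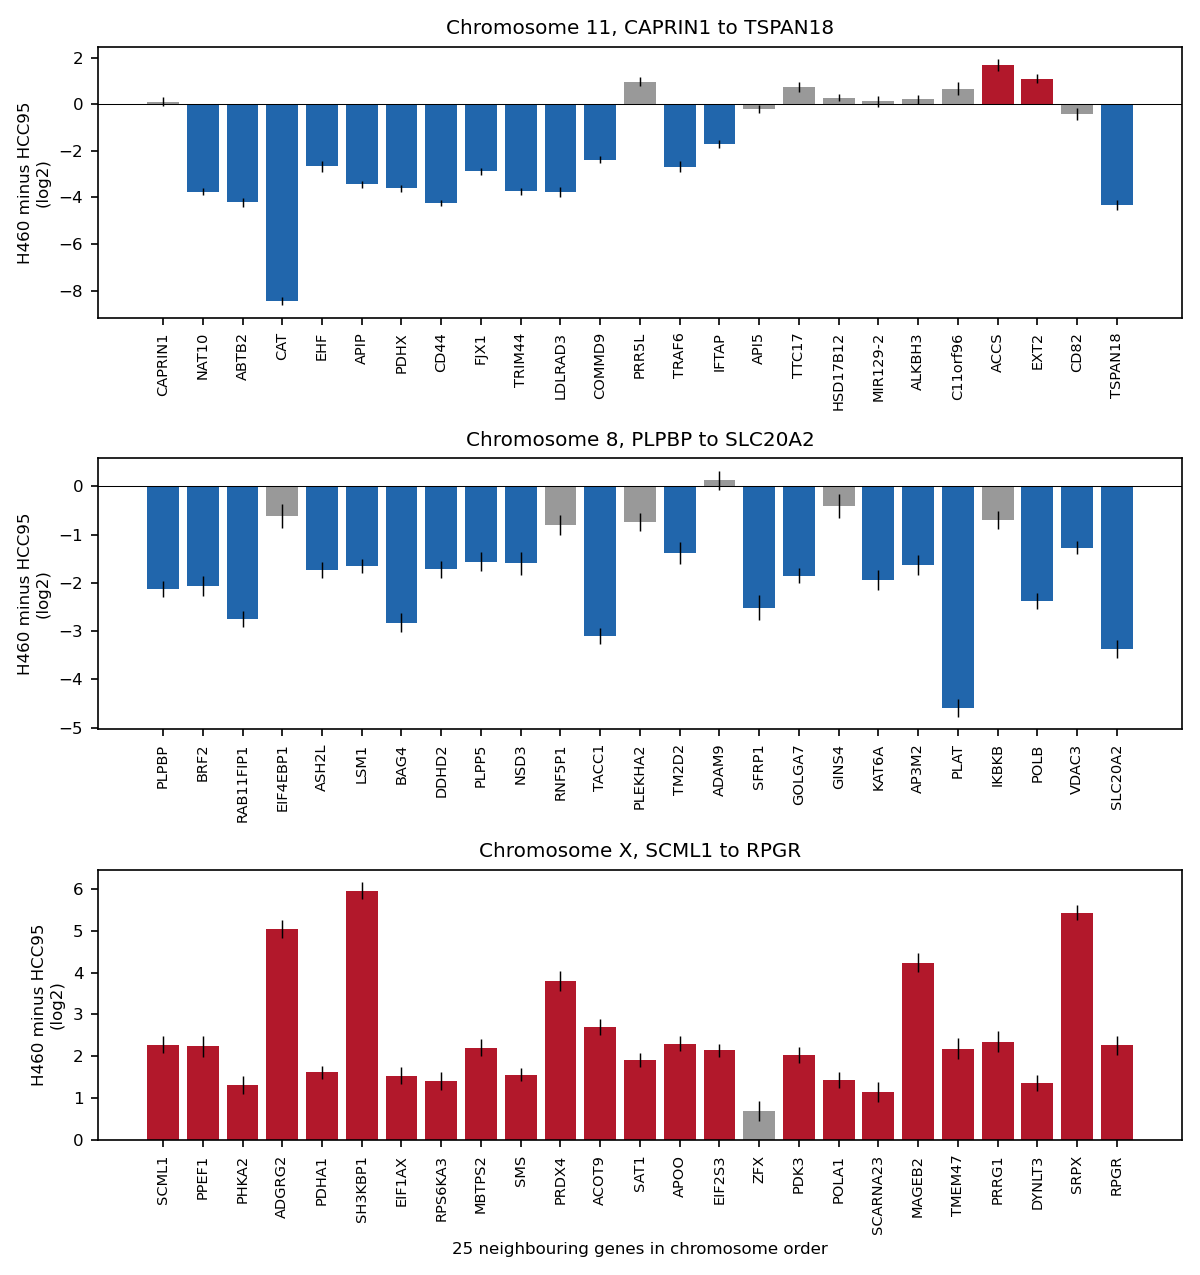
Difference (H460 minus HCC95, log2) of each of 25 neighbouring genes in 3 windows, in chromosome order, with the standard error of the limma fit as the error bar, red and blue for genes called at least 2-fold higher and lower, and grey for other genes. On chromosome 8 the bars are blue for 19 of 25 genes, on X red for 24 of 25, and on chromosome 11 the blue run ends before API5, with TSPAN18 blue again at the end.

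Of 19 markers of fibroblasts, endothelium, white blood cells and muscle with a probe, 6 were detected on each HCC95 array and 4 on each H460 array, and their summed linear intensity was 2069 and 1571 in HCC95 and 2328 and 2413 in H460. The collagen genes COL1A1 and COL1A2, THY1 and VWF were detected on both HCC95 arrays and on neither H460 array, PDGFRB and CD14 on both H460 arrays and on neither HCC95 array, and CD68 and ACTA2 on all 4. CD14, a receptor of monocytes that other cells can carry, read 9.50 and 9.64 in H460. The other markers, PTPRC, CD3E, LYZ, PECAM1, CDH5, KDR, DCN, LUM, COL3A1, DES and MYH11, were not detected on any of the 4 arrays. The part of other cell types in the results was not tested. Of 12 measured housekeeping genes, 3 were higher, 3 lower and 6 not called, with a median of -0.15. ACTB and GAPDH differed by 0.11 and 0.19 and were not called (adjusted p = 0.450 and 0.170), and TFRC and IPO8 were 2.27-fold and 2.48-fold lower. Where a gene had more than 1 kept probe, the probes mostly went together. Of 764 such genes called at least 2-fold by the brightest probe, the next brightest was called the same way in 675 and the opposite way in 4. In 31 genes called probes went both ways, most in BEX1 (0.98 and -1.97), N4BP2L2, WLS, HNRNPDL and CSTF1, so these genes have no single direction.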

How the data were processed

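Total RNA of 6 cultures was measured on Illumina HumanHT-12 v4 arrays, and the 4 untreated ones were compared. The deposited table held non-normalized probe intensity from GenomeStudio 2011.1, per the submitters' processing notes, beside a detection p-value per probe that the authors deposited in steps of 1 in 770. Of the genome build used for the array the sources here say nothing. Intensities were background corrected from the detection p-values (normexp, offset 16), quantile normalized over all 6 arrays and logged to base 2 with neqc of limma 3.58.1 in R 4.3.3. Probes with a detection p under 0.01 on at least 2 of the 4 arrays were fitted with line and vector as terms (1 residual degree of freedom, median prior 13.2), eBayes with trend and Benjamini-Hochberg adjustment. The number of arrays limits the precision. The fit was tested on simulated data.

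Of 47323 probes, 30113 had 1 annotated symbol, 8 had several and 17202 were not listed. Of the 16965 kept probes 3427 were unnamed. A gene was read by its brightest kept probe. Undetected genes were bounded by the lowest detected value of each array (log2 5.33 to 5.59).

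The naming rule took, in each direction, the 12 largest differences among called genes detected on all 4 arrays with both vector pairs alike, and the 12 largest bounds among genes detected in 1 line, then up to 6 called members each way of each list and members not called, LZTFL1, and the 5 genes whose probes disagreed most. Outside it, MIR205, TBXT, ANXA10, TMEM191B, the window members and the lower-ranked list members (NGFR, DSG2, DSG3, DSC3, DSP, SPINT1, ST14, OVOL2, GRHL2, ELF3, ESRP1, KRT19, JUP, LSR, CRB3, EHF, CDH11, ZEB2, ERBB2, DUSP6, NQO1, AKR1B10, MKI67, FXR1) were chosen after their values were seen. Genes on the Y chromosome and some other items are not reported here. Members, rules and lists were chosen with earlier results of these data known. Alternatives were another scaling, background correction, offset, filter, probe summary and model, the authors' processed values, and each array left out.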

Additional observations from a re-analysis of the deposited data

Results flagged for a closer look

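In 5 gene lists the median difference lay close to 0 and had opposite signs in the vector pairs. The difference between the pairs was not tested, and each pair is 1 array against 1 array. The inflammatory and NF-kappaB list had a median of -0.022 in the fit, with 0.0042 between the arrays labelled GFP and -0.049 between those labelled LZTFL1. For aldehyde dehydrogenase and retinoid genes the median was -0.024, with -0.082 and 0.034. For metalloproteinases and their inhibitors it was -0.021, with 0.31 and -0.36. Unfolded protein and ATF4 genes had 0.15, with -0.071 and 0.29, and housekeeping genes had -0.15, with -0.32 and 0.11. The sign of each of these medians also changed when 1 array was left out, so none of them has a settled direction.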

How the results depend on the processing

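Of 592 genes followed, 458 were called, and 365 of those kept the call and its direction under every one of the 16 alternatives that tested them. No followed gene was called in the opposite direction. Counts past 2-fold were 2211 probes higher and 2332 lower, and fell to 1026 and 1054 with no background correction and to 1273 and 1213 for probes detected on all 4 arrays, which tests fewer probes. Without 1 array in turn and with no vector term, calls ranged from 2898 to 4771 higher and from 3213 to 4889 lower, and past 2-fold from 2241 to 2324 and from 2360 to 2450. Median scaling gave 2906 higher and 5117 lower calls, ended 26 of the followed calls and added 9. The Hedgehog median moved from 0.21 to -0.04 under it. For probes detected on all 4 arrays the medians of the inflammatory list (-0.02), metallothioneins (-1.29) and other cell markers (-0.65) turned to 1.33, 0.83 and 1.61. That filter leaves out every gene detected in 1 line only, so these medians cover fewer members. Of the 8 measured other cell markers, 6 were detected in 1 line only. Without 1 array the medians that changed sign were inflammatory (0.12 to 0.15, for 3 of the 4 arrays), unfolded protein (-0.05), aldehyde dehydrogenase (0.04), metalloproteinase (0.30) and housekeeping (0.08), and averaging the probes of a gene turned the inflammatory one to 0.02. Without the H460 array labelled GFP 66 followed calls were lost, and without the one labelled LZTFL1 70. No paired analysis was possible because every sample carries replicate number 1, other than the pairing by vector that the fit already holds. Without the vector term the calls were 4297 and 4659. Signal over background limits the 1467 genes detected in 1 line, which have only bounds. Apart from that change of members, the cause of these shifts was not tested.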

Other observations

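The genes below were picked out one by one after their values were seen, and they stand for no gene group. Detected in H460 only were TFPI, an inhibitor of tissue factor, at least 46.0-fold higher, and SERPIND1, an inhibitor of thrombin, at least 17.8-fold higher. The phosphodiesterase gene PDE4B was at least 14.1-fold higher, the neurotrophin gene BDNF at least 24.9-fold and the growth factor gene FGF2 at least 9.53-fold. The zinc carrier SLC39A8 was at least 60.3-fold higher. TXNIP, which binds thioredoxin, read 4.90 and 5.36 in HCC95, where it was detected on 1 array, and 10.77 and 10.78 in H460, a fitted 49.9-fold higher.

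Lower in H460 was the Notch ligand gene JAG2, by 7.59-fold. CDH3, which encodes the cadherin of basal epithelium, read 10.55 and 10.14 in HCC95 and 4.51 and 4.35 in H460, where it was not detected. UGT1A6, a glucuronidating enzyme whose exons are shared with its neighbours, was at least 49.5-fold lower.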
